A study of Saturnispora dispora and Saturnispora hagleri and Saturnispora mendoncae with 16 samples.

Results

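The 5 steps of glycolysis from aldolase to enolase that carry a gene name in these data were followed in 4 yeasts of the genus *Saturnispora*. The members were the orthogroups of *FBA* (OG0002240), *TPI* (OG0004382), *TDH* (OG0002860), *GPM* (OG0002572) and *ENO* (OG0003263), chosen by name as 5 of the 5029 orthogroups in the table of transcript levels (TPM). An orthogroup is a set of genes that descend from 1 ancestral gene, and each member held a single gene in every species that had a value for it. TPM counts the reads of a gene per unit of its length and scales every library to the same total, so levels of different genes in a library can be compared. *TPI* had no value in *Sat. dispora*, and the other 4 members had values in all 16 libraries.

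Each of the 4 species contributed 4 biological replicates of 1 strain, 16 libraries in all. *Sat. hagleri* (Shag) and *Sat. dispora* (Sdis) acidify their medium rapidly after glucose is added (rapid extracellular acidification rate, ECAR) and their RNA was taken at 15 h. The other species, *Sat. mendoncae* (Smen) and *Sat. silvae* (Ssil), acidify it slowly (low ECAR), and their RNA was taken at 18 h. All cultures were started at an OD600 of 0.05 and grown to log phase at room temperature in synthetic complete medium with 2% glucose, 50 ml in a baffled 250 ml flask at 225 rpm. The hours were chosen to reach the same growth phase, but hour, species and ECAR class change together and cannot be told apart.

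In glycolysis, aldolase (*FBA*) splits fructose bisphosphate into a pair of triose phosphates, and triose phosphate isomerase (*TPI*) interconverts them. Glyceraldehyde-3-phosphate dehydrogenase (*TDH*) then oxidizes glyceraldehyde-3-phosphate, reducing NAD, phosphoglycerate mutase (*GPM*) moves the phosphate group on phosphoglycerate, and enolase (*ENO*) removes water to give phosphoenolpyruvate. The genes of these enzymes are among the most highly expressed genes of the model yeast *Saccharomyces cerevisiae*. Phosphoglycerate kinase, the step between *TDH* and *GPM*, was not analysed here.

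The coding lengths, worked out from counts and TPM as the whole numbers of codons that fit both, were nearly the same in every species for each member: 358 or 359 codons for *FBA*, 248 or 249 for *TPI*, 336 for *TDH*, 249 or 250 for *GPM* and 438 for *ENO*. The lengths of all other genes still enter the TPM of a member through the total of the library. Other genes that may encode the same steps in other orthogroups were not analysed here.

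Read pairs assigned to genes numbered 6196684 to 13928456 per library, and each member drew 8763 to 426435 of them, so that the counting error of a level was 1.07% at most. In every library 4.10% to 19.0% of the reads had no gene. The highest shares were in Ssil replicate 4 (19.0%), Ssil replicate 1 (11.1%) and Sdis replicate 4 (10.9%). Shag replicate 3 stood apart from the other Shag libraries, with a median deviation over all orthogroups of -0.25 (log2) from the Shag mean, and replicate 4 was at 0.24. Without Shag replicate 3 no call below of a member level, ratio or gene pair in TPM was lost. Then 1 uncalled difference (*FBA*/*TPI*, Shag minus Ssil) changed sign, to -0.012. Calls after median-ratio rescaling, without gene length, with edgeR or DESeq2, or of other genes of the pathway were not checked without this library. TPM is a share of each library, so the amount of RNA per cell was not measured. The typical gene did not have the same TPM in every species. The median difference over the 4232 orthogroups tested was 0.42 (log2) for Shag minus Sdis, 0.06 for Shag minus Smen, -0.63 for Shag minus Ssil, -0.33 for Sdis minus Smen, -1.06 for Sdis minus Ssil and -0.68 for Smen minus Ssil. After rescaling by the median ratio of all orthogroups these medians lay between -0.01 and 0.02. Ratios between members of 1 library do not depend on this scaling.

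All 4 members with a value in every species were called higher in Shag and in Sdis than in Smen or Ssil, by 0.31 to 2.55 on the log2 TPM scale and by 0.75 to 2.81 after median-ratio rescaling. *FBA* and *GPM* differed most and *TDH* least in each of these 4 comparisons on both scales. For Sdis minus Ssil, however, *FBA* (0.98 in TPM) and *ENO* (0.97) were nearly equal. Without Ssil replicate 4 *FBA* was below *ENO* there (0.89 and 0.91). The sizes against Ssil depended on the scaling more than those against Smen. Differences within an ECAR class changed sign with the scaling for most members, so both values are given. Tests were made with limma on log2(TPM + 1) with Benjamini-Hochberg adjustment over all orthogroups. *TPI* was tested in the 3 species that have it. Two-sided exact permutation tests of each member between 2 species can give no p below 0.0286 with 4 libraries against 4. Every member level or ratio that limma called between 2 species had no overlap between their libraries and reached that p (Benjamini-Hochberg adjusted, 0.0367 in 27 comparisons of levels and 0.0361 in 24 of ratios).

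In aldolase, *FBA*, the Shag libraries had 10325, 10513, 9156 and 10106 TPM, the Sdis libraries 8709, 8057, 8889 and 7955 TPM, the Smen libraries 1801, 1723.5, 1695 and 1640 TPM and the Ssil libraries 5006, 4724, 3940 and 3471 TPM. No 2 species overlapped, and Smen was the lowest in every library. The mean was 10025 ± 603 TPM in Shag, 8402 ± 466 TPM in Sdis, 1715 ± 66.9 TPM in Smen and 4285 ± 705 TPM in Ssil (SD, n = 4 each). By limma, *FBA* was higher in Shag than in Smen by 2.55 (SE 0.11, adjusted p = 2.7e-12) and than in Ssil by 1.24 (SE 0.11, adjusted p = 1.2e-08). It was higher in Sdis than in Smen by 2.29 (adjusted p = 8.5e-12) and than in Ssil by 0.98 (adjusted p = 1.4e-07). After median-ratio rescaling the differences from Ssil were 1.88 for Shag and 2.06 for Sdis. The low ECAR species also differed from each other, with Smen below Ssil by -1.31 (SE 0.11, limma adjusted p = 4.9e-09), and by -0.60 after rescaling. *FBA* was the only member called in TPM between the rapid ECAR species, at 0.25 (SE 0.11, limma adjusted p = 0.0392). This call did not hold, since the difference was -0.18 (adjusted p = 0.241) after median-ratio rescaling and the limma adjusted p passed 0.05 when Sdis replicate 2 or 4, Shag replicate 1, 2 or 4, or Smen replicate 3 was left out.

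For triose phosphate isomerase, *TPI*, the Shag libraries had 5658, 6748, 4323 and 6588 TPM, the Smen libraries 2534, 2408, 2325 and 2499 TPM and the Ssil libraries 2822, 2703, 2489 and 2314 TPM. Every Shag library was above every Smen and Ssil library, and the low ECAR species overlapped. *TPI* averaged in Shag 5829 ± 1113 TPM, in Smen 2441 ± 94.1 TPM and in Ssil 2582 ± 226 TPM (SD, n = 4 each). *TPI* was higher in Shag than in Smen by 1.23 (SE 0.13, limma adjusted p = 2.2e-06) and than in Ssil by 1.16 (SE 0.13, limma adjusted p = 2.5e-06), which was 1.80 after rescaling. Between Smen and Ssil the difference was -0.08 (95% interval -0.36 to 0.21, limma adjusted p = 0.595) in TPM. After median-ratio rescaling it was 0.62 and called higher in Smen (limma adjusted p = 0.00014), as it was with edgeR (0.58) and DESeq2 (0.62).

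*TDH*, the gene of glyceraldehyde-3-phosphate dehydrogenase, was the highest of all orthogroups in each Shag and Sdis library, the third in each Smen library and the second in each Ssil library. It had 31479, 36086, 27611 and 36382 TPM in Shag, 30424, 29822, 33297 and 30481 TPM in Sdis, 19100, 18474, 17404 and 19502 TPM in Smen and 26576, 26378, 23913 and 23404 TPM in Ssil. The 2 rapid ECAR species overlapped, and Smen was below Ssil in every library. The mean was 32890 ± 4174 TPM in Shag, 31006 ± 1557 TPM in Sdis, 18620 ± 914 TPM in Smen and 25068 ± 1643 TPM in Ssil (SD, n = 4 each). The difference was 0.81 for Shag minus Smen (limma adjusted p = 3.9e-06) and 0.39 for Shag minus Ssil (limma adjusted p = 0.00333). It was 0.74 for Sdis minus Smen (limma adjusted p = 1.0e-05) and 0.31 for Sdis minus Ssil (limma adjusted p = 0.0128). After median-ratio rescaling the differences from Ssil were 1.03 for Shag and 1.38 for Sdis, and without gene length they were 0.64 and 0.65. Smen was below Ssil by -0.43 in TPM (SE 0.11, limma adjusted p = 0.00145), but its difference was 0.28 after median-ratio rescaling (adjusted p = 0.0603), 0.29 with DESeq2, which called it higher (adjusted p = 0.00285), and -0.16 without gene length (adjusted p = 0.119). Between Shag and Sdis the difference was 0.08 (95% interval -0.15 to 0.30, limma adjusted p = 0.522) in TPM, and after rescaling it was called lower in Shag, at -0.35 (limma adjusted p = 0.0253).

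Phosphoglycerate mutase, *GPM*, was high in TPM in the rapid and low in the low ECAR species. The Shag libraries had 7872, 9197, 6019 and 9605 TPM, the Sdis libraries 8279, 7652, 8402 and 7557 TPM, the Smen libraries 2489, 2298, 2231.5 and 2144 TPM and the Ssil libraries 2717, 2537, 2174 and 2172 TPM. Species of the same class overlapped, and the lowest rapid ECAR library had 6019 TPM, against 2717 TPM in the highest low ECAR library. The mean was 8173 ± 1615 TPM in Shag, 7972 ± 430 TPM in Sdis, 2291 ± 147 TPM in Smen and 2400 ± 272 TPM in Ssil (SD, n = 4 each). *GPM* was higher in Shag by 1.81 than in Smen and by 1.75 than in Ssil, and in Sdis by 1.80 than in Smen and by 1.74 than in Ssil (SE 0.13 each, limma adjusted p between 1.1e-09 and 2.0e-09). After median-ratio rescaling the differences from Ssil were 2.39 for Shag and 2.81 for Sdis. The difference was 0.01 for Shag minus Sdis (95% interval -0.26 to 0.29, limma adjusted p = 0.925), and after rescaling *GPM* was called lower in Shag, at -0.42 (limma adjusted p = 0.00497). It was -0.06 for Smen minus Ssil (95% interval -0.33 to 0.21, limma adjusted p = 0.655), and 0.64 after rescaling, called higher in Smen (limma adjusted p = 8.6e-05).

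Enolase, *ENO*, was second to *TDH* among the members in every library. The Shag libraries had 12793, 13984, 10096 and 14086 TPM, the Sdis libraries 13213, 11882, 13628 and 11680 TPM, the Smen libraries 6691, 6491, 6243 and 6753 TPM and the Ssil libraries 7390, 7027, 5796 and 5565 TPM. As for *GPM*, the species of 1 class overlapped and the classes did not. The mean was 12740 ± 1858 TPM in Shag, 12601 ± 965 TPM in Sdis, 6544 ± 230 TPM in Smen and 6445 ± 899 TPM in Ssil (SD, n = 4 each). Its 4 differences between a rapid and a low ECAR species lay between 0.94 and 0.98 in TPM (SE 0.12 each, limma adjusted p between 8.5e-07 and 2.7e-06). This even size did not hold after median-ratio rescaling, where they were 0.89 for Shag minus Smen, 1.62 for Shag minus Ssil, 1.31 for Sdis minus Smen and 2.05 for Sdis minus Ssil. Between Shag and Sdis the difference was 0.01 (95% interval -0.25 to 0.26, limma adjusted p = 0.963), and between Smen and Ssil it was 0.03 (95% interval -0.22 to 0.29, limma adjusted p = 0.812). After median-ratio rescaling both were called, at -0.42 (limma adjusted p = 0.00834) and 0.74 (limma adjusted p = 5.9e-05).

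**Figure D1:**
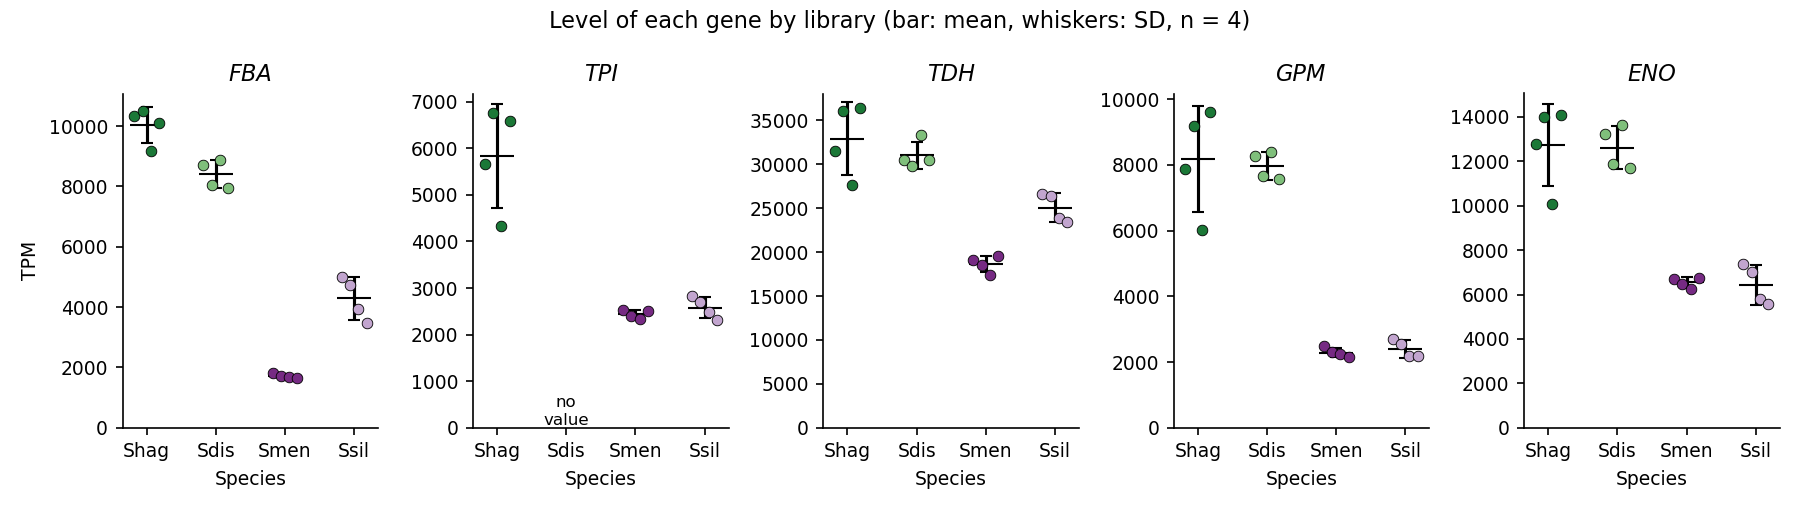
TPM of each member (vertical axes, linear from 0, 1 scale per gene) in the 4 libraries of each species; points are libraries, the horizontal bar is the mean and the whiskers are the SD. In TPM *GPM* and *ENO* separate into a high pair (Shag, Sdis) and a low pair (Smen, Ssil), which differ within each pair after rescaling, while *FBA* has a different level in each species, with 1640 to 1801 TPM in Smen and 3471 to 5006 TPM in Ssil.

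Of the 4 members with values in all species, 4 of 4 were called higher in Shag than in Smen, against 37.3% of the orthogroups tested, and 4 of 4 higher in Shag than in Ssil, against 22.6%. All 4 were higher in Sdis than in Smen, against 26.4%, and in Sdis than in Ssil, against 19.9%. After median-ratio rescaling these 4 counts were the same, against backgrounds of 36.9% (Shag minus Smen), 41.4% (Shag minus Ssil), 40.5% (Sdis minus Smen) and 42.7% (Sdis minus Ssil). Within the rapid ECAR class 1 of 4 was called higher in Shag than in Sdis, against 57.2% of the orthogroups. After rescaling, and with edgeR and DESeq2, 0 of 4 were higher and 3 of 4 (*TDH*, *GPM* and *ENO*) lower, against 34.9% lower among the rescaled orthogroups. Within the low ECAR class 2 of 4 (*FBA* and *TDH*) were called lower in Smen than in Ssil, against 62.1%. After rescaling 1 of 4 (*FBA*) was lower, against 41.8%, and 2 of 4 (*GPM* and *ENO*) were higher, against 41.5%. *TPI*, tested in 3 species, was called higher in Shag than in Smen (36.8% of 4268 orthogroups were) and than in Ssil (22.6%), and was not called in TPM between Smen and Ssil (83.5% were in either direction). Comparisons that share a species share its 4 libraries. The direction of the differences between rapid and low ECAR species held after median-ratio rescaling, without gene length and with edgeR and DESeq2 on read counts, and all 16 calls over the 4 members held.

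Other genes of the pathway that the tables used here tie to gene IDs were *HXT* (hexose transport), *HXK* (hexokinase), *PFK* (phosphofructokinase) and *ADH* (alcohol dehydrogenase). The tables list these genes for binding sites in their promoters, so they are not a neutral sample of the pathway. All 4 were called higher in Shag than in Smen (37.3% of all orthogroups were) and in Sdis than in Smen (26.4%). Against Ssil, 3 of 4 were higher and 1 lower in Shag (22.6% of all orthogroups were higher and 60.5% lower). In Sdis 2 of 4 were higher than in Ssil (19.9% of orthogroups were) and 0 lower at the limma threshold. The largest difference was in *HXT*, at 3.49 for Shag minus Ssil and 3.37 for Sdis minus Ssil (limma, log2 TPM). The named *HXT* gene matched its orthogroup singly in Shag and Sdis, but not in Ssil. Those of *PFK* and *ADH* did so in no species. TPM of an orthogroup with several genes is their summed counts over summed lengths, so such levels average over copies. Values without gene length, edgeR and DESeq2, which used single genes, covered only 1 of these 4 genes. *ADH* was lower in Shag than in Ssil by -1.03 and lower in Shag than in Sdis by -0.99 (limma). *PFK* was higher in Sdis than in Smen by 1.44, while its difference between Sdis and Ssil was -0.10 (95% interval -0.30 to 0.10, limma adjusted p = 0.322). In Shag against Sdis, 2 of 4 were called higher (57.2% of orthogroups were) and 1 lower (16.8%). In Smen against Ssil 2 were higher (22.1% of orthogroups were) and 2 lower (62.1%). After rescaling, a check added after the data were seen, 4 of 4 were higher in Sdis than in Ssil, with *PFK* at 0.97 and *ADH* at 1.04. Of the rescaled orthogroups 42.7% were higher in that comparison. In Shag against Sdis 0 were then higher and 2 lower (*HXT* at -0.31 and *ADH* at -1.43), against 34.5% higher and 34.9% lower. The other counts stayed the same.

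The order of the members within a library was the same in all 4 libraries of each species, and it differed between species below *TDH* and *ENO*. In Shag it was *TDH*, *ENO*, *FBA*, *GPM*, *TPI*, from high to low TPM, and in Sdis *TDH*, *ENO*, *FBA*, *GPM*. In Smen it was *TDH*, *ENO*, *TPI*, *GPM*, *FBA*, and in Ssil *TDH*, *ENO*, *FBA*, *TPI*, *GPM*. *FBA* therefore came next after *ENO* in Shag, Sdis and Ssil and last in Smen, and *TPI* stood below *GPM* in Shag and above it in Smen and Ssil. Among all orthogroups of a library, *FBA* ranked 5 to 6 in Shag, 7 to 11 in Sdis, 132 to 143 in Smen and, in Ssil, 21 to 31. *ENO* held the ranks 3 to 5 in Shag and in Sdis, 8 to 11 in Smen and, in Ssil, 13 to 18.

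The 4 members with values in all species together made up 6.38% ± 0.81 of the TPM of a library in Shag, 5.998% ± 0.32 in Sdis, 2.92% ± 0.12 in Smen and 3.82% ± 0.35 in Ssil (SD, n = 4 each). Within this sum *TDH* took 51.5% ± 0.79 in Shag, 51.7% ± 1.11 in Sdis, 63.8% ± 0.78 in Smen and 65.7% ± 1.76 in Ssil. The share of *TDH* was thus larger in the low ECAR species, where its level was lower. *GPM* took 12.7% ± 0.99 of the sum in Shag, 13.3% ± 0.27 in Sdis, 7.86% ± 0.50 in Smen and 6.28% ± 0.18 in Ssil. *FBA* took 15.8% ± 1.33 in Shag, 14.0% ± 0.26 in Sdis, 5.88% ± 0.30 in Smen and 11.2% ± 0.86 in Ssil. *ENO* did not divide by ECAR class, with a share of 19.9% ± 0.59 in Shag, 21.0% ± 0.67 in Sdis, 22.4% ± 0.17 in Smen and 16.8% ± 0.81 in Ssil. With *TPI* added, *TPI* took 8.32% ± 0.55 of the sum of 5 in Shag, 7.72% ± 0.06 in Smen and 6.33% ± 0.12 in Ssil.

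**Figure D2:**
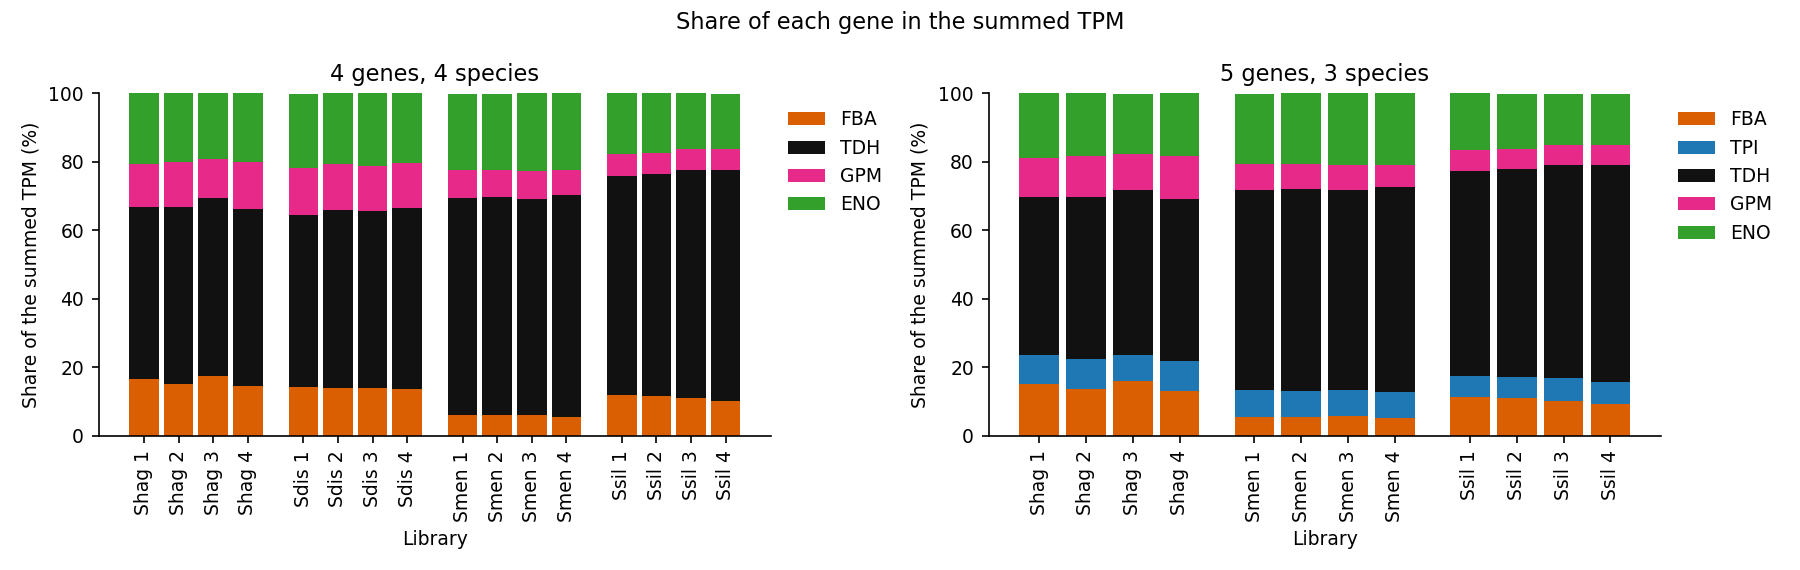
Share of each gene (vertical axis, percent) in the summed TPM of *FBA*, *TDH*, *GPM* and *ENO* in 4 species (left) and of all 5 genes in the 3 species with *TPI* (right); each bar is a library. The bars of Shag and Sdis look alike, with *TDH* at 50.2% to 52.9%, whereas *TDH* takes 63.1% to 67.6% in Smen and Ssil.

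Ratios between steps within a library were then compared between species, since they do not change with the scaling of a library. Between Shag and Sdis none of the 3 ratios tested (*FBA*/*TDH*, *TDH*/*GPM* and *GPM*/*ENO*) passed the limma threshold, whereas relative to *TDH*, *GPM* and *ENO* 69.2%, 68% and 67.5% of all orthogroups did. Each of these ratios differed between every rapid and every low ECAR species. Smen and Ssil differed most in the ratios with *FBA*. P-values are from limma on the log2 ratio, with the ratios of all orthogroups to the same gene in the fit, and part of each SE is borrowed from orthogroups of like level.

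The ratio of *FBA* to *TDH* was 0.328, 0.291, 0.332 and 0.278 in the Shag libraries, 0.286, 0.270, 0.267 and 0.261 in the Sdis libraries, 0.0943, 0.0933, 0.0974 and 0.0841 in the Smen libraries and 0.188, 0.179, 0.165 and 0.148 in the Ssil libraries. The rapid ECAR species overlapped with each other, Ssil lay between them and Smen, and Smen was the lowest. On the log2 scale the ratio was higher in Shag than in Smen by 1.73 and than in Ssil by 0.85, and higher in Sdis than in Smen by 1.56 and than in Ssil by 0.68 (SE 0.10 each, limma adjusted p between 9.96e-11 and 6.7e-06). Of all orthogroups, 12.7%, 13.8%, 9.64% and 14.3% were called higher relative to *TDH* in the same 4 comparisons. The ratio was lower in Smen than in Ssil by -0.88 (limma adjusted p = 4.7e-07), where 48% of orthogroups were lower relative to *TDH*. Between Shag and Sdis the log2 difference was 0.18 (95% interval -0.04 to 0.39, limma adjusted p = 0.126).

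The ratio of *GPM* to *ENO*, the last steps followed here, was 0.615, 0.658, 0.596 and 0.682 in Shag, 0.627, 0.644, 0.617 and 0.647 in Sdis, 0.372, 0.354, 0.357 and 0.317 in Smen and 0.368, 0.361, 0.375 and 0.390 in Ssil. The ratios of the rapid ECAR species overlapped, as did those of the low ECAR species, and the classes were apart. The log2 ratio was higher in Shag than in Smen by 0.86 and than in Ssil by 0.77, and higher in Sdis than in Smen by 0.86 and than in Ssil by 0.76 (SE 0.11 each, limma adjusted p between 5.9e-07 and 2.0e-06). Relative to *ENO*, 10.4%, 6.33%, 6.74% and 6.88% of orthogroups were called higher in these comparisons. The log2 difference was 0.01 between Shag and Sdis (95% interval -0.22 to 0.24, limma adjusted p = 0.951) and -0.09 between Smen and Ssil (95% interval -0.32 to 0.13, limma adjusted p = 0.426), where 81.4% of orthogroups were called in either direction.

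*TDH* exceeded *GPM* by a factor of 3.79 to 4.59 in the Shag libraries, 3.67 to 4.03 in the Sdis libraries, 7.67 to 9.10 in the Smen libraries and 9.78 to 10.998 in the Ssil libraries. The log2 ratio of *TDH* to *GPM* was lower in Shag than in Smen by -1.001 and than in Ssil by -1.37, and lower in Sdis than in Smen by -1.06 and than in Ssil by -1.43 (SE 0.14 each, limma adjusted p between 2.4e-08 and 3.3e-06). Relative to *GPM*, 91.8%, 93.8%, 93.3% and 92.3% of all orthogroups were lower in these comparisons, so *TDH* shared this with nearly every orthogroup. The ratio was also lower in Smen than in Ssil, by -0.37 (SE 0.14, limma adjusted p = 0.0271; 59.1% of orthogroups were lower), and the libraries of Smen and Ssil did not overlap. This call was lost, at limma adjusted p between 0.0522 and 0.0640, when Smen replicate 1, 2 or 3 or Ssil replicate 2, 3 or 4 was left out. Between Shag and Sdis the log2 difference was 0.06 (95% interval -0.24 to 0.37, limma adjusted p = 0.712).

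The ratios that involve *TPI* were available in 3 species. *FBA* to *TPI* was 1.82, 1.56, 2.12 and 1.53 in the Shag libraries, 0.711, 0.716, 0.729 and 0.656 in the Smen libraries and 1.77, 1.75, 1.58 and 1.5004 in the Ssil libraries. In Smen *FBA* was thus below *TPI* in every library, and in Shag and Ssil it was above *TPI* in every library. The log2 ratio was higher in Shag than in Smen by 1.31 (SE 0.13, limma adjusted p = 4.0e-07; 7.62% of orthogroups were higher relative to *TPI*) and lower in Smen than in Ssil by -1.23 (limma adjusted p = 9.1e-07; 58.8% were lower). Between Shag and Ssil, of different ECAR class, it differed by 0.08 (95% interval -0.20 to 0.36, limma adjusted p = 0.552; 92% of orthogroups were called in either direction). *TPI* to *TDH* was 0.157 to 0.187 in Shag, 0.128 to 0.134 in Smen and 0.0989 to 0.106 in Ssil, with no overlap. Its log2 ratio was higher in Shag than in Smen by 0.42 (limma adjusted p = 0.00068; 13.2% of orthogroups were higher relative to *TDH*), in Shag than in Ssil by 0.77 (limma adjusted p = 2.1e-06; 13.9%) and in Smen than in Ssil by 0.35 (limma adjusted p = 0.00265; 32.2%).

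**Figure D3:**
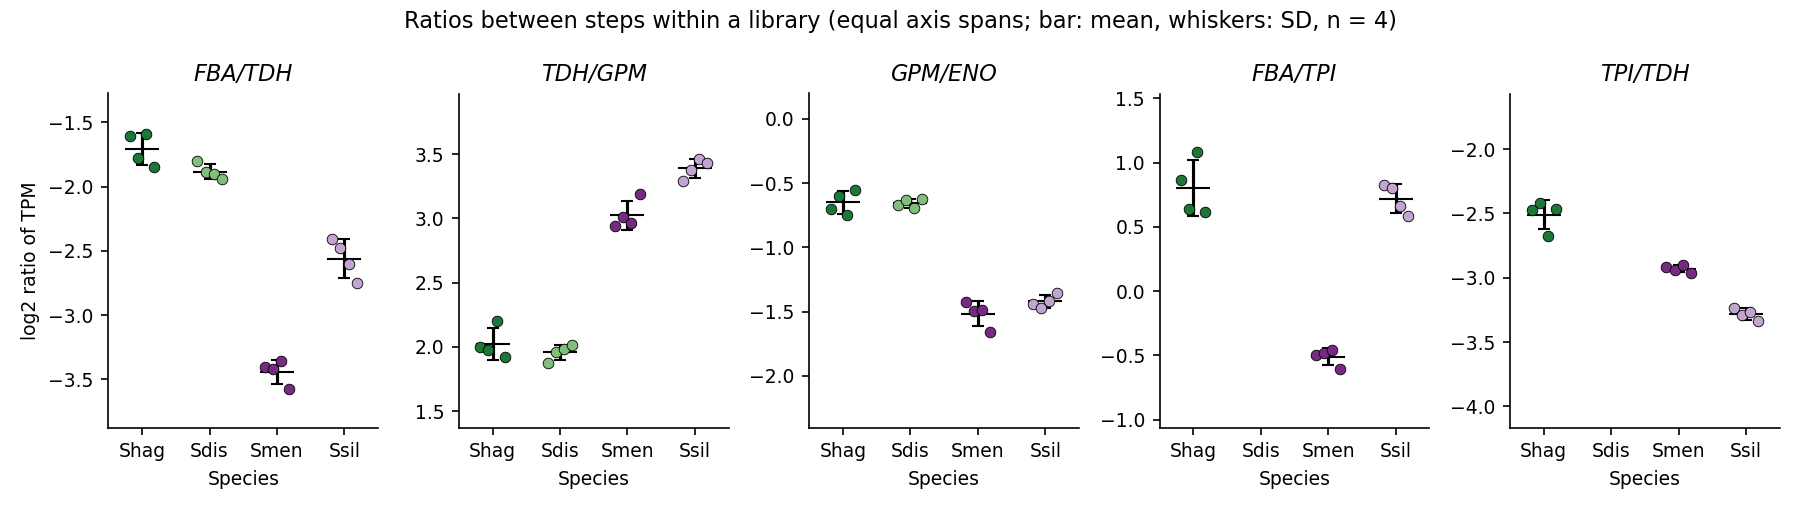
log2 ratio of TPM between members in each library (vertical axes, equal spans) by species; points are libraries, bars are means and whiskers SDs. For *FBA*/*TDH*, *TDH*/*GPM* and *GPM*/*ENO* the Shag and Sdis points overlap and lie apart from Smen and Ssil, and *FBA*/*TPI* sets Smen (0.656 to 0.729 on the linear scale) apart from Shag and Ssil.

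Replicate cultures of a species also differed in the levels of these genes, and the members tended to move together. The spread between replicates, as a coefficient of variation of TPM, ran between 6.01% for *FBA* and 19.8% for *GPM* in Shag, where it was widest for every member but *FBA*. It was 5.02% to 7.66% in Sdis, 3.52% to 6.40% in Smen and 6.55% to 16.5% in Ssil, where *FBA* varied most. All of these are above the counting error. The deviation of each library from its species mean was taken on the log2(TPM + 1) scale, since 4 replicates of 1 species are too few for a correlation. After median-ratio rescaling *TDH* deviated by -0.07 to 0.07 in Shag, against -0.16 to 0.21 in Sdis. *ENO* deviated by -0.11 to 0.11 in Shag, against -0.23 to 0.22 in Ssil, and *GPM* too was no longer widest in Shag. *TPI* still was, at -0.20 to 0.16, against -0.18 to 0.15 in Ssil.

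In Shag, replicate 3 was low in all 5 members, with deviations of -0.13 in *FBA*, -0.41 in *TPI*, -0.24 in *TDH*, -0.42 in *GPM* and -0.32 in *ENO*. Replicates 2 and 4 were high in all 5, by 0.01 (*FBA* in replicate 4) to 0.26 (*GPM* in replicate 4). The median over all orthogroups moved with them, at -0.25 in replicate 3, 0.09 in replicate 2 and 0.24 in replicate 4, and it was -0.08 in replicate 1, where *FBA* and *ENO* were above the species mean. After median-ratio rescaling the deviations of replicate 3 were 0.08 in *FBA*, -0.20 in *TPI*, -0.03 in *TDH*, -0.21 in *GPM* and -0.11 in *ENO*, and 4 of 5 members lay below the mean in replicate 4, *FBA* farthest at -0.21. In TPM *FBA* deviated less than the other members in replicates 2, 3 and 4, but not in replicates 3 and 4 after rescaling.

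In Ssil, replicates 1 and 2 were high in all 5 members and replicates 3 and 4 low in all 5. *FBA* had the widest span, at 0.24, 0.16, -0.11 and -0.29, and *TDH* the narrowest, at 0.09, 0.08, -0.07 and -0.10. The median over all orthogroups stayed within -0.03 to 0.04 in these libraries. The share of reads without a gene was 11.1%, 5.37%, 5.46% and 19.0% in the 4 Ssil libraries, so the larger shares were in the library with the highest and in the one with the lowest levels of the members, and its part in the result was not tested.

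In Sdis, replicate 3 was high and replicates 2 and 4 were low in all 4 members with a value, while the median over all orthogroups was 0.10, 0.04, -0.07 and -0.08 in replicates 1 to 4. After rescaling replicate 3 was again high in all 4, replicates 1 and 2 were low in all 4, and in replicate 4 all but *ENO* lay above the mean. The TPM deviations of *FBA* and *GPM* were nearly equal in every Sdis library, 0.05 and 0.06, -0.06 and -0.06, 0.08 and 0.08, and -0.08 and -0.08. Their ratio varied by 0.258% (coefficient of variation), the smallest spread of any ratio here. That is less than read counting alone would give, with 62186.5 to 85579.5 read pairs of *GPM* per Sdis library. The value is therefore no measure of how closely the genes follow each other. In Smen, replicate 4 split the members: *TPI* (0.03), *TDH* (0.07) and *ENO* (0.05) were above the species mean, and *FBA* (-0.06) and *GPM* (-0.09) below it. All members lay on the same side of the species mean in 12 of the 16 libraries, and in 11 after median-ratio rescaling.

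**Figure D4:**
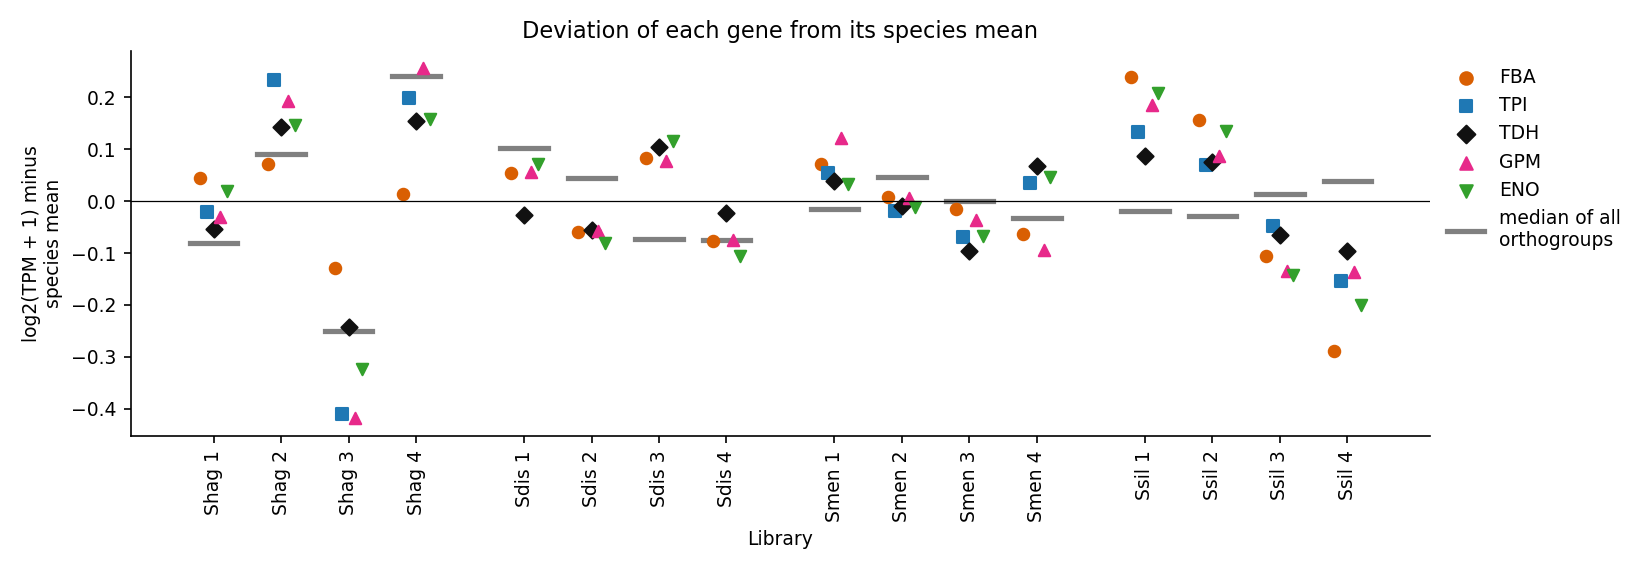
Deviation of each gene from its species mean (vertical axis, log2(TPM + 1)) in each library; symbols are genes and the grey line is the median deviation of all orthogroups. In Shag the grey line reaches -0.25 in replicate 3 and 0.24 in replicate 4, while in Ssil the members spread over -0.29 to 0.24 with the grey line near 0.

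Over all libraries, each of the 10 gene pairs was positively correlated in its deviations (16 libraries, 12 for pairs with *TPI*; permutation tests that shuffled replicates within species, Benjamini-Hochberg over the 10 pairs). In TPM the tightest pair was *TPI* and *TDH* (Pearson r = 0.97, permutation adjusted p = 0.00128; Spearman rho = 0.99, permutation adjusted p = 0.00167), but after rescaling its r of 0.85 was below that of 5 other pairs, of which *TPI* and *ENO* had the highest (0.90). *TPI* with *GPM* (r = 0.95, permutation adjusted p = 0.00366; rho = 0.93, adjusted p = 0.00416) and *TPI* with *ENO* (r = 0.94, permutation adjusted p = 0.00128; rho = 0.95, adjusted p = 0.00167) followed. *GPM* and *ENO* had r = 0.92 (permutation adjusted p = 0.00128) and rho = 0.90 (adjusted p = 0.00214). *TDH* and *ENO* had r = 0.91 (permutation adjusted p = 2e-04) and rho = 0.90 (adjusted p = 0.0016). *TDH* and *GPM* had r = 0.89 (permutation adjusted p = 0.00366) and rho = 0.84 (adjusted p = 0.00416).

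In TPM the pairs with *FBA* were looser, apart from *FBA* and *ENO* (r = 0.84, permutation adjusted p = 0.00172, and rho = 0.86, adjusted p = 0.00416). After median-ratio rescaling only *FBA* with *TPI* (r = 0.59) and with *GPM* (0.68) were looser than every pair without *FBA*. *FBA* with *TDH* (0.757) was then level with *TDH* and *GPM* (0.753). *FBA* had r = 0.71 with *GPM* (permutation adjusted p = 0.00128; rho = 0.87, adjusted p = 0.0016), 0.64 with *TPI* (permutation adjusted p = 0.00543; rho = 0.78, adjusted p = 0.0102) and 0.62 with *TDH* (permutation adjusted p = 0.00739; rho = 0.72, adjusted p = 0.0107). The call of *FBA* with *TPI* was lost with a replicate block (adjusted p = 0.0563) and that of *FBA* with *TDH* without gene length (adjusted p = 0.0620, both permutation tests). Without the 2 libraries farthest from the median of the first gene, r stayed between 0.63 (*FBA* and *TDH*) and 0.95 (*TPI* and *TDH*). The SD of the log2 ratio of a pair was 0.07 to 0.15, against 0.18 to 0.28 had the genes varied independently with the same spread. After median-ratio rescaling the range for independent genes was narrower, 0.16 to 0.23, and that of the ratios was still 0.07 to 0.15.

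Other orthogroups followed the members as well. The median r of the other 4228 orthogroups was 0.08 with *FBA*, 0.39 with *TDH*, 0.50 with *GPM* and 0.37 with *ENO*. For *TDH* 22.7% and for *GPM* 20.9% of the orthogroups correlated at least as well as the least correlated of the other 3 members, against 1.77% for *FBA* and 1.09% for *ENO*. After median-ratio rescaling these median correlations lay between -0.02 and 0.04 and the shares were 3.33% for *FBA*, 3.10% for *TDH*, 3.997% for *GPM* and 0.402% for *ENO*. The r of the 10 pairs then lay between 0.59 and 0.90 and 9 of 10 passed the permutation test, the exception being *FBA* and *TPI* (r = 0.59, permutation adjusted p = 0.126; 0.27 without the 2 farthest libraries). Without all 4 Shag libraries the 10 values of r lay between 0.69 and 0.96, and *FBA* with *TDH*, *TPI* with *GPM* and *TDH* with *GPM* did not pass (permutation adjusted p = 0.0546, 0.0658 and 0.0658).

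**Figure D5:**
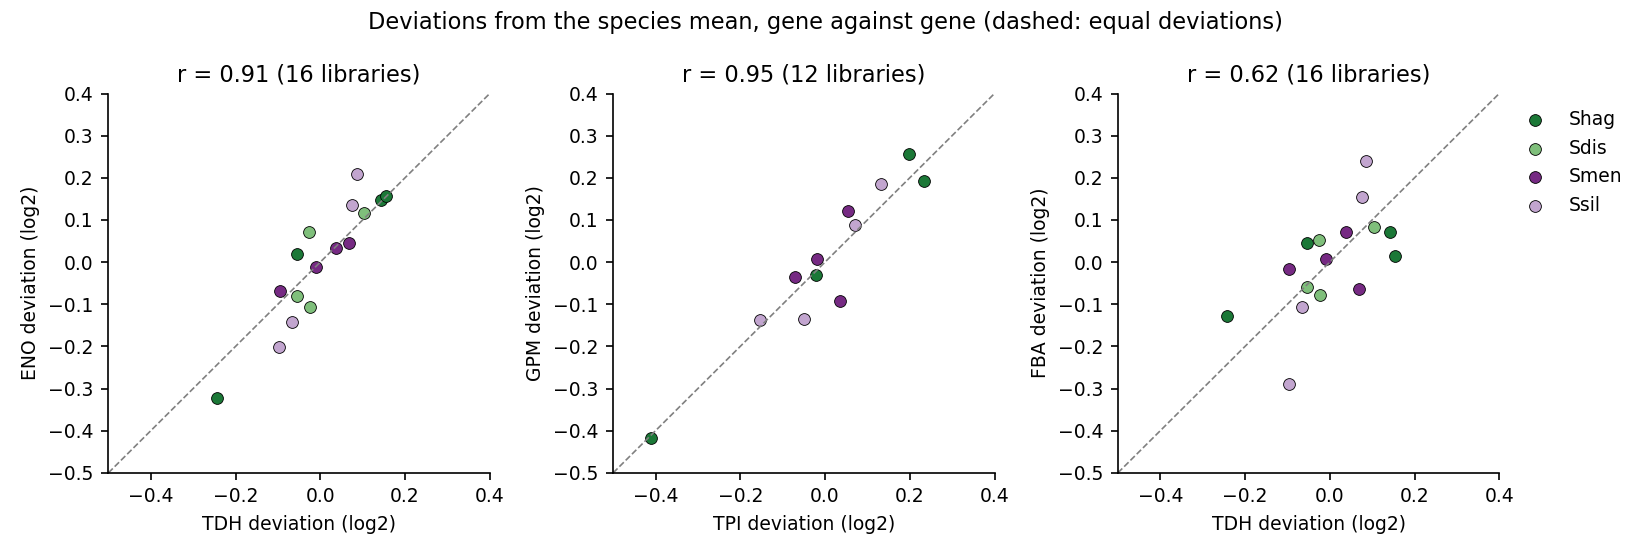
Deviations from the species mean (log2, both axes) of *ENO* against *TDH*, *GPM* against *TPI* and *FBA* against *TDH*; points are libraries coloured by species and the dashed line marks equal deviations. In TPM, as drawn, the points of the first 2 panels lie close to a line (r = 0.91 and 0.95), and those of *FBA* against *TDH* scatter more (r = 0.62), with Ssil steeper and Shag flatter than the dashed line.

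The 2 orthogroups whose deviations were most like those of *FBA*, *TDH*, *GPM* and *ENO* were OG0002212 (mean r of 0.90 over 16 libraries) and OG0000832 (mean r of 0.90), for which the sources used here give no gene name. OG0002212 averaged 6689 TPM in Shag, 6002 TPM in Sdis, 1648 TPM in Smen and 1822 TPM in Ssil. OG0000832 averaged 6819 TPM in Shag, 4804 TPM in Sdis, 3341 TPM in Smen and 7133 TPM in Ssil, so in TPM it was highest in a low ECAR species. The median orthogroup was also lower in TPM in Shag (-0.63, log2) and Sdis (-1.06) than in Ssil. Levels of OG0000832 after rescaling are not given here, so its order between species may depend on the scaling. After rescaling OG0002212 again ranked 1 of 4228, and OG0000832 ranked 8 (mean r of 0.82), behind OG0000101 at rank 2. Among the other named genes, *HXK* ranked 19, *ADH* 25 and *PFK* 33 of 4228, with mean r of 0.82, 0.81 and 0.80, and *HXT* ranked 932 with a mean r of 0.53. After rescaling *ADH* ranked 10, *PFK* 14, *HXK* 18 and *HXT* 242 (mean r of 0.57). *HXT* was thus the named gene that followed the members least between replicates on both scales. These ranks are descriptions, since all correlations rest on the same 16 libraries.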

How the data were processed

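Per the labels and the study's methods, poly(A) RNA was made into directional libraries and sequenced as pairs of 150 bp. The authors used Trimmomatic 0.30 for trimming, HISAT2 2.1.0 for alignment and HTSeq 2.0.3 for counting pairs per gene. The deposited gene counts are expected counts, because pairs that fit several genes were shared in fractions. The authors summed counts and lengths per OrthoFinder orthogroup and computed the deposited TPM with edgeR. Genome builds were not given in the sources used here.

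Genes were tied to orthogroups by proportional values (tolerance 1e-07). Names of the members come from gene IDs in the study's promoter tables, except *TPI* in Smen, which was tied by value alone. No gene ID was used for *HXT*, *PFK* and *ADH* in Smen or for *HXK* in Smen and Ssil. Those values rest on the orthogroup alone. The orthogroups of *PFK* and *ADH* were found by adding counts of other genes to those of the named gene. limma 3.58.1 (R 4.3.3) was run on log2(TPM + 1) with an intensity trend, for orthogroups whose TPM averaged 5 or more and was above 0 in every species, with a threshold of 0.05 on the adjusted p. Ratios were fitted likewise. The methods name no test for expression. Pair correlations used 100000 permutations. The code was tested on simulated data. Alternatives were a pseudocount of 0.1, no low-value filter, no variance trend, median-ratio rescaling, values without gene length, a replicate block, edgeR 4.0.16, DESeq2 1.42.0 (both on counts rounded to whole numbers) and leaving out each library. Reads without a gene were left out. Replicates differed beyond sampling noise (chi-square per degree of freedom 4.40 to 333 over 24 pairs). The members, the other pathway genes and the rule for naming them (the 5 members, *HXT*, *HXK*, *PFK*, *ADH*, *GAL4* and at most 2 orthogroups most like the members between replicates) were chosen with earlier results of these data known. *GAL4* is not reported here.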

Additional observations from a re-analysis of the deposited data

Results flagged for a closer look

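In 52 sets of 4 replicates (levels and ratios of the members by species), 1 had a library far from the others, where chance alone flags about 1 in 20. The ratio of *FBA* to *ENO* in Ssil was 0.624 in replicate 4, against 0.672 to 0.680 in the other 3 Ssil libraries. The gap made up 0.864 of the whole range, above Dixon's critical value for 4 samples. This library also had the lowest *FBA* level of Ssil (3471 TPM), the fewest read pairs in genes of all 16 libraries (6196684) and the highest share of reads without a gene (19.0%), and their part in the ratio was not tested.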

How the results depend on the processing

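Within an ECAR class, levels depend on the scaling. With DESeq2, edgeR and median-ratio rescaling in turn, Shag minus Sdis was -0.18, -0.16 and -0.18 for *FBA*, -0.37, -0.35 and -0.35 for *TDH*, -0.42, -0.41 and -0.42 for *GPM* and -0.43, -0.42 and -0.42 for *ENO*, with 3 of 4 members called lower under each, against 1 called higher in TPM. Without gene length 0 were called and *TDH*, *GPM* and *ENO* were at -0.0096, -0.073 and -0.081. Smen minus Ssil, in the same order, was 0.29, 0.25 and 0.28 for *TDH*, 0.65, 0.61 and 0.64 for *GPM* and 0.62, 0.58 and 0.62 for *TPI* (0.21 for *GPM* and 0.20 for *TPI* without gene length). DESeq2 called 4 of 4 members there (3 higher and 1 lower), against 2 lower in TPM, and each of the 3 settings called *TPI* (1, against 0). Of the rescaled orthogroups 41.5% were called higher and 41.8% lower for Smen minus Ssil. Shares of all orthogroups called with DESeq2, edgeR, a replicate block or without gene length were not worked out. Counts of members under those settings therefore have no background beside them and are not read as particular to the members. Leaving out 1 library, the count of members called for Shag minus Sdis ran between 0 and 1, and that of the ratios *FBA*/*TDH*, *TDH*/*GPM* and *GPM*/*ENO* for Smen minus Ssil between 1 and 2. Differences near 0 changed sign when 1 library was left out: Shag minus Sdis ran between -0.046 and 0.11 for *ENO*, -0.071 and 0.15 for *GPM* and -0.025 and 0.0396 for *GPM*/*ENO*, Smen minus Ssil between -0.035 and 0.10 for *ENO*, and Shag minus Ssil between -0.012 and 0.14 for *FBA*/*TPI*. The cause was not tested, apart from the shift of all orthogroups that rescaling removes. The calls of the 5 members' levels between a rapid and a low ECAR species were kept under every alternative run for them, as were those of the ratios, which were not run with edgeR or DESeq2. In other pathway genes after rescaling, Shag minus Sdis turned to -0.31 for *HXT*, -0.082 for *HXK* and -0.025 for *PFK*, and Sdis minus Ssil to 0.97 for *PFK* and 1.04 for *ADH*.

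The deviations of same-numbered libraries of different species had correlations between -0.33 and 0.38 (24 correlations, 8 over 0.1). Whether same-numbered libraries shared a day or a batch was not tested. With a replicate block the counts of calls stayed at 1 of 4 members for Shag minus Sdis and 2 of 4 for Smen minus Ssil, and *FBA* with *TPI* had r = 0.65 (permutation adjusted p = 0.0563). Without gene length *FBA* with *TDH* had r = 0.55 (permutation adjusted p = 0.0620). The setting without all Shag libraries was added after the data were seen. With 1 strain per species, p-values measure the spread between cultures of a strain.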
